A study of Mus musculus with 8 samples.

Results

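The inhibitors of cyclin-dependent kinases and the D cyclins were measured in mouse muscle stem cells with and without deletion of Chd4, the ATPase subunit of the NuRD chromatin remodelling complex. The 10 genes were taken by name: the CIP/KIP inhibitors Cdkn1a (p21), Cdkn1b (p27) and Cdkn1c (p57), the INK4 inhibitors Cdkn2a (p16 and Arf), Cdkn2b (p15), Cdkn2c (p18) and Cdkn2d (p19), and the D cyclins Ccnd1, Ccnd2 and Ccnd3. All 10 were found among the 20976 genes of the table, and all 10 were among the 12910 genes that passed the filter on low values, which asked for 1 CPM, a value relative to the library total, in at least 4 libraries.

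D cyclins bind and activate the kinases Cdk4 and Cdk6, which phosphorylate the retinoblastoma protein and so release E2F factors to switch on genes of DNA replication. INK4 proteins bind Cdk4 and Cdk6 and keep D cyclins from them, whereas CIP/KIP proteins bind whole cyclin-kinase complexes, above all those of Cdk2. In muscle precursor cells an exit from the division cycle precedes fusion into fibres, and p21, p57 and the retinoblastoma protein are known for their part in that exit.

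Both groups were cultures of muscle stem cells purified by flow cytometry from Chd4LoxP/LoxP mice and grown for a short time with serum and bFGF, a fibroblast growth factor that keeps such cells dividing. The 4 Cre libraries came from cells infected with an adenovirus for Cre recombinase, which removes exons 12 to 21 of Chd4, and the 4 GFP libraries from cells given an adenovirus for green fluorescent protein as the control. All 8 libraries thus carried loxP-flanked Chd4 and had received an adenovirus, no library combined Cre with a Chd4 gene free of loxP sites, and the age and sex of the mice were not given in the sources used here. Each group came from 4 mice, the whole culture was sequenced, and no sort for recombined cells is described.

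Scaled totals lay between 27897860 and 28876348, and the depth before scaling, worked out from gaps among low values, was 26.3 to 30.4 M reads in Cre and 23.3 to 38.0 M in GFP. Chd4 ranged from 3686 to 5480 normalised reads in Cre and from 15904 to 20121 in GFP, without overlap (log2 change -1.88 ± 0.14, SE; limma, adjusted p = 0.00328). The 7 muscle stem cell markers Pax7, Myf5, Myod1, Cdh15, Itga7, Vcam1 and Des were all tested, and their summed level was 93813 to 112051 in Cre and 92447 to 100684 in GFP. In a model paired by replicate number 2 of the 7 rose and 3 fell, where that model called 22.2% of all genes tested higher and 21.7% lower. Myod1 rose by 0.20 and Des by 0.17 on the log2 scale (limma, adjusted p = 0.0425 and 0.0447). The changes were -0.57 for Myf5, -0.30 for Vcam1 and -0.14 for Pax7, each lower in 4 of 4 pairs (limma, adjusted p = 0.000124, 0.0019 and 0.0354). Of the markers of other cell types, those of pericytes and smooth muscle (3 of 4 tested) summed to 24511 to 54556 in Cre and 7383 to 14340 in GFP, mostly through Rgs5 (log2 change 2.08; limma, adjusted p = 0.0277). Endothelial markers (2 of 4 tested) summed to 276 to 408 in Cre and 141 to 182 in GFP, and immune markers (1 of 4 tested) to 115 to 455 and 51 to 278. Of those tested, endothelial Tek rose by 1.46 and immune Cd68 by 1.00 on the log2 scale (limma, paired adjusted p = 3.28e-05 and 0.000369). Endothelial Pecam1 was not called (limma, paired adjusted p = 0.168). Fibro-adipogenic markers (1 of 4 tested) summed to 96 to 143 and 105 to 151, and Schwann cell markers (1 of 4 tested) to 67 to 77 and 37 to 110. The part of these other cells in the results below was not tested. In RNA of a whole culture, fewer cells of a type and less RNA per cell cannot be told apart.

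Among the inhibitors, Cdkn1a, Cdkn1c and Cdkn2b were higher and Cdkn2c was lower in the Cre library of every pair of equal replicate number, and of the D cyclins Ccnd1 was higher in every pair. Cdkn1a stood 1.36-fold and Cdkn1c 2.11-fold higher in the mean of the Cre libraries, with no overlap between the groups. Cdkn1b, Cdkn2a, Cdkn2d, Ccnd2 and Ccnd3 passed no test. In the model without pairing, 0 of the 10 genes passed after adjustment over all genes (limma, 2 higher with an unadjusted p below 0.05, 0 calls with voom), where 0.837% of all genes tested were called higher and 0.248% lower (1.08% in all) and 16.7% had an unadjusted p under 0.05.

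Libraries of equal number deviated together, so a second model took the replicate number as a blocking factor and is called the paired model. There 4 of the 10 genes rose (Cdkn1a, Cdkn1c, Cdkn2b and Ccnd1), 1 fell (Cdkn2c) and 5 did not pass. Over all genes tested the paired model called 22.2% higher and 21.7% lower, 43.9% in all, so a count of 5 among 10 lies near the background and does not set the genes apart. Groups without overlap were found for 2 of the 10, both higher in Cre, against 4.41% of all genes higher and 6.17% lower. Every pair went up for 4 of the 10 genes and down for 1, against 27.9% and 27.6% of all genes. The median log2 change was 0.10 over the 10 genes and -0.00 over all genes tested.

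**Figure D1:**
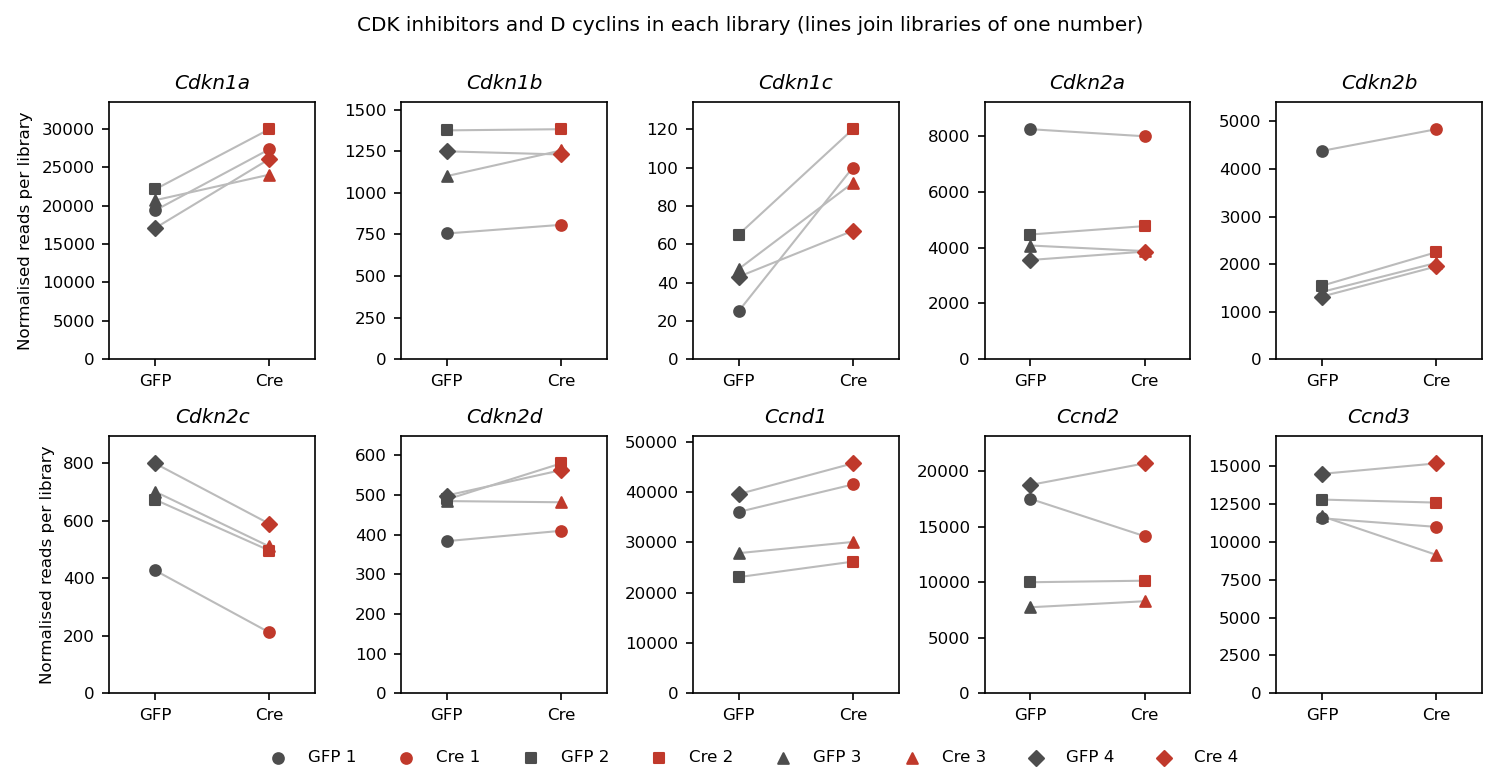
Normalised reads (linear axis from 0) of the 10 genes in each GFP library (grey) and Cre library (red), with lines joining libraries of equal number, marked by one symbol each. Lines of Cdkn1a and Cdkn1c rise from separate ranges, Cdkn2b rises and Cdkn2c falls in all 4 pairs within overlapping ranges, and replicate 1 is the highest of each group for Cdkn2a and Cdkn2b and the lowest for Cdkn1b, Cdkn2c and Cdkn2d.

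Levels of different genes were set side by side per kilobase of merged exon length. Merged length counts each base that lies in an exon of any annotated transcript. The order of levels and the family shares below depend on this choice, and no other length was tried. In GFP, Ccnd1 led with 6721 ± 1597 normalised reads per kb, followed by Cdkn1a with 5581 ± 604 and Cdkn2a with 4338 ± 1824 (SD, n = 4). Next came Cdkn2b at 1558 ± 1065, Ccnd3 at 1438 ± 154 and Ccnd2 at 1435 ± 578 reads per kb. Cdkn2d at 295 ± 34.2, Cdkn1b at 246 ± 58.9 and Cdkn2c at 242 ± 58.9 came next, and Cdkn1c closed the order at 22.1 ± 8.05. The ranges of neighbours in this order overlapped except between Ccnd2 and Cdkn2d and between Cdkn2c and Cdkn1c. Within single libraries, Cdkn2a stood above Cdkn2b and Cdkn2d above Cdkn1b in 4 of 4 libraries of both groups, while Ccnd1 stood above Cdkn1a in 3 of 4 GFP and 2 of 4 Cre libraries. In Cre the breaks lay above Cdkn2d and above Cdkn1c again, and Ccnd1 at 7616 ± 1960 and Cdkn1a at 7562 ± 698 reads per kb had nearly the same mean. In both groups the messages of cyclin D1, p21 and p16/Arf had the 3 highest means.

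**Figure D2:**
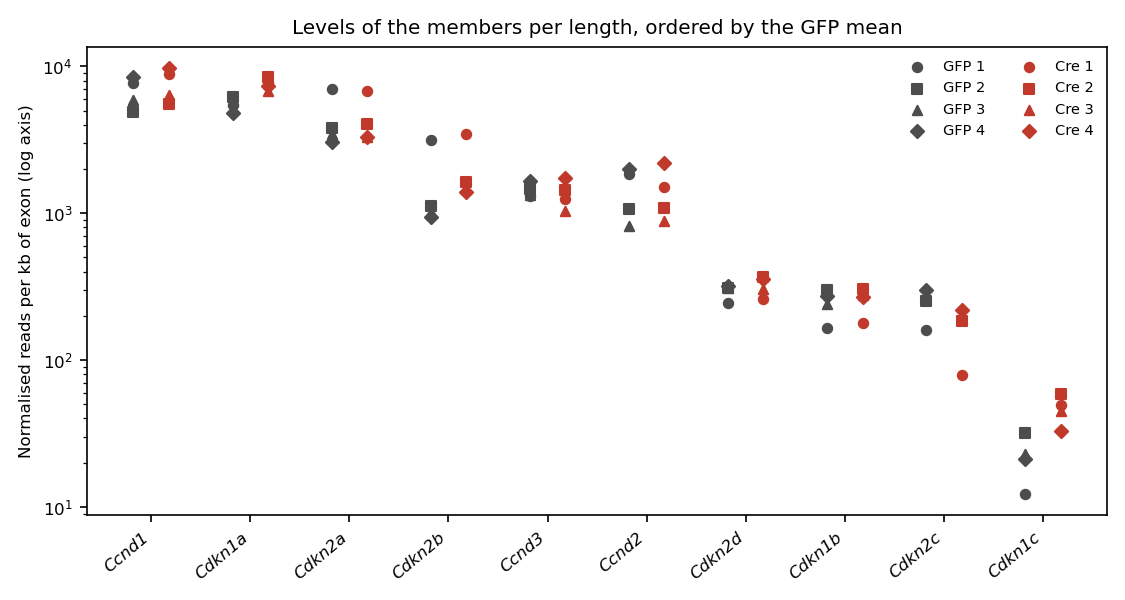
Normalised reads per kilobase of merged exon (log axis) of the 10 genes in each GFP library (grey) and Cre library (red), ordered by the GFP mean. The genes fall into an upper group of 6, a lower group of 3 with 242 to 295 reads per kb in the GFP mean, and Cdkn1c below all others.

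Cdkn1a encodes p21, an inhibitor of cyclin-kinase complexes that p53 is known to induce and that rises when myoblasts stop dividing. The gene (ENSMUSG00000023067) maps to chromosome 17, from 29090979 to 29100722 on the plus strand of GRCm38. RefSeq gives it 2 starts, and the 100 bases that end just before the upstream start and the 200 bases before the downstream start, which lie in the first intron of the transcript from the upstream start, are shown because this inhibitor had the highest mean per length in both groups and differed between groups without overlap. Capitals in the upstream stretch (chr17:29090876-29090975, plus strand, RefSeq on GRCm38.p6) mark CATG followed after 6 further bases by CATG, the core pair of a p53 site, and those in the downstream stretch (chr17:29093569-29093768, plus strand) mark GGGCGG, the GC box bound by Sp1.
Cdkn1a upstream start: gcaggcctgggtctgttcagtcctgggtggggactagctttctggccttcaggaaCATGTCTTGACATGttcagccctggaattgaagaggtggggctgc
Cdkn1a downstream start: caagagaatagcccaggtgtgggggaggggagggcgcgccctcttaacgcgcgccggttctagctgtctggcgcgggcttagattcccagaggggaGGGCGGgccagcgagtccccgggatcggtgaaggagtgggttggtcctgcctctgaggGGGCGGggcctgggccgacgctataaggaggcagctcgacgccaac
The p53 core pair began 48 bases before the upstream start and was the only match to this motif in the windows searched. These covered 7 of 10 genes, each window running from 250 bases before to 50 after a start. No RefSeq window was found for Cdkn1c, Ccnd1 and Ccnd2, so they were not searched for any motif. Searched on both strands, the core pair was present in 0.712% of 32851 such windows over all genes, and the GC box in 35.7%. A GC box lay in a window of each of the 7 genes searched, so it does not set the printed genes apart. A match is a description of the letters and not evidence of binding.

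In order of replicate number, as for all values below, the Cre libraries held 27360, 29972, 24048 and 26090 normalised reads of Cdkn1a, and the GFP libraries 19387, 22131, 20713 and 17081. The lowest Cre library lay above the highest GFP library, and the largest gain was in pair 4 (0.61 on the log2 scale) and the smallest in pair 3 (0.22). Means were 26868 ± 2479 in Cre and 19828 ± 2147 in GFP (n = 4 each, ± SD), and the log2 change of 0.44 ± 0.11 (SE) did not pass the model without pairing (limma, adjusted p = 0.1005). In the paired model Cdkn1a rose (SE 0.06; limma, adjusted p = 0.000266), with a 95% interval of 1.24- to 1.49-fold, and it kept that call in all 11 paired alternatives. Treatment accounted for 75.0% of the variation of its log2 values and the replicate number for 17.0%, against medians of 15.4% and 70.2% over all genes tested. Of sequence shared with other genes, 8.49% of the 50-base stretches in Cdkn1a transcripts also occur in transcripts of another annotated gene.

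Cdkn1c encodes p57, an inhibitor expressed mainly from the maternal allele and known to act with p21 in muscle cells that leave the cycle. It lies on chromosome 7 at 143458339 to 143461050, minus strand (ENSMUSG00000037664). The gene was low, at 100, 120, 92 and 67 normalised reads in Cre and at 25, 65, 47 and 43 in GFP. Ranges did not overlap, although the lowest Cre library (67) and the highest GFP library (65) nearly met, and pair 1 had the largest difference (1.96 on the log2 scale, against 0.63 to 0.95 in the other pairs). Means of 94.8 ± 21.9 and 45 ± 16.4 (n = 4 each, ± SD) gave a log2 difference of 1.10 ± 0.32 (SE; limma, adjusted p = 0.145 without pairing). The paired model called it higher (SE 0.21; limma, adjusted p = 0.00197), and without replicate 1 the log2 change was 0.82 (limma, paired adjusted p = 0.00269). GFP libraries held an estimated 22.6 to 58.1 original reads of Cdkn1c, so counting error alone was 13.1 to 21.1% there. Of its 50-base stretches 24.9% also occur, on either strand, in another annotated gene. This can make its level less certain than those of the other inhibitors.

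Cdkn1b encodes p27, which holds resting cells out of the cycle and is controlled largely through protein turnover. On chromosome 6 it spans 134920401 to 134925513, plus strand (ENSMUSG00000003031). It stood at 808, 1383, 1255 and 1231 normalised reads in Cre and at 756, 1376, 1101 and 1250 in GFP, so both groups covered the same range and replicate 1 was lowest in each. The log2 change was 0.07 ± 0.23 (SE) and passed neither model (limma, adjusted p = 0.921, paired 0.349). The 95% interval of the paired model, 0.963- to 1.14-fold, bounds the difference that these libraries allow. Replicate number accounted for 97.1% of its variation.

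Within the CIP/KIP family p21 message was predominant in every library, at 95.5 to 97.1% of the family's reads per length in Cre and 94.2 to 96.8% in GFP. The share of Cdkn1b was 3.28% ± 0.719 in Cre and 4.23% ± 1.03 in GFP, and that of Cdkn1c 0.588% ± 0.108 and 0.374% ± 0.113 (n = 4 each, ± SD). These shares were not tested.

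Of the INK4 genes, Cdkn2a and Cdkn2b lie side by side on chromosome 4. Cdkn2b passed the paired test and Cdkn2a passed neither. Cdkn2a (ENSMUSG00000044303) spans 89274471 to 89294653 and Cdkn2b (ENSMUSG00000073802) 89306289 to 89311032, both on the minus strand and 11.6 kb apart. Cdkn2a yields p16, which inhibits Cdk4 and Cdk6, from one first exon (89281986 to 89282192) and Arf, which stabilises p53 through Mdm2, from another (89294334 to 89294653). The transcripts are 852 and 895 bases long in GENCODE M21 and share 575 of 1172 merged exonic bases, so the gene-level values cannot be split between p16 and Arf. The 100 bases before or near the 3 starts of the locus are shown since the starts are separate and only values per gene were measured. They are written in the direction of transcription on the minus strand, from RefSeq on GRCm38.p6, at chr4:89311040-89311139, chr4:89282193-89282292 and chr4:89294655-89294754, with the E2F motif TTTCCCGC and the GC box GGGCGG in capitals.
Cdkn2b: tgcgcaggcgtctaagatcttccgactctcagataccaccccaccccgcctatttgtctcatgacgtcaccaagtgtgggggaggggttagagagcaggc
Cdkn2a, p16 start: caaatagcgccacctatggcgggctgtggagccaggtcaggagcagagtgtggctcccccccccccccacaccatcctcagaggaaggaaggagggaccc
Cdkn2a, Arf start: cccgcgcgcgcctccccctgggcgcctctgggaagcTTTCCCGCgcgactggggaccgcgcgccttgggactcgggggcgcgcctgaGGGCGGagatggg
Only the Arf stretch held capitals, but the stretches were cut at different distances from their starts. Counted from each start, GGGCGG also began at 5 in the Cdkn2b window and at 24 in the p16 window. In the Arf window it began at -14 and 32 as well, all outside the printed stretches. The TTTCCCGC of the Arf stretch, present in 1.07% of all windows, was the only match to any of 3 searched E2F motifs among the windows of the 7 genes. The other E2F motifs searched were TTTGGCGC (0.514% of windows) and TTTCGCGC (0.323%), and a CAGCTG E box, the kind bound by MyoD family factors, matched only in the upstream Cdkn1a window (16.3% of all windows). No match says only that these letters are not in the window.

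Cdkn2b, whose product p15 is known as a mediator of growth arrest by TGF-beta, stood at 4838, 2251, 2026 and 1951 normalised reads in Cre and at 4382, 1546, 1416 and 1318 in GFP. Replicate 1 was by far the highest in both groups, the ranges overlapped, and each Cre library lay above the GFP library of its number. Means were 2767 ± 1387 and 2166 ± 1481 (n = 4 each, ± SD), and the log2 change was 0.44 ± 0.44 (SE; limma, adjusted p = 0.678 without pairing). With the block Cdkn2b rose (SE 0.07; limma, adjusted p = 0.00053), by 0.14 in pair 1 and by 0.52 to 0.57 in the others, and without replicate 1 the paired log2 change was 0.54 (limma, adjusted p = 1.36e-05). Replicate number accounted for 87.3% of its variation and treatment for 11.0%.

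Cdkn2a stood at 7988, 4769, 3875 and 3855 normalised reads in Cre and at 8241, 4468, 4074 and 3555 in GFP. Replicate 1 was again highest in both groups, and the Cre library was higher in 2 of 4 pairs. The log2 change of 0.02 ± 0.31 (SE) passed neither model (limma, adjusted p = 0.982, paired 0.714), and the paired 95% interval was 0.947- to 1.09-fold. Without pairing the interval was 0.617- to 1.67-fold. Replicate number accounted for 99.1% of its variation.

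The ratio of Cdkn2b to Cdkn2a within a library was 0.606, 0.472, 0.523 and 0.506 in Cre and 0.532, 0.346, 0.348 and 0.371 in GFP. Replicate 1 was still the highest of each group, and GFP 1 lay above Cre 2, 3 and 4, so the groups overlapped. The ratio was higher in Cre in 4 of 4 pairs, by 0.42 ± 0.17 on the log2 scale (SD over 4 pairs, range 0.19 to 0.59). An exact sign-flip permutation test over the pairs gave a two-sided p of 0.125, the smallest this test can give with 4 pairs.

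Cdkn2c encodes p18, an INK4 protein known to rise as myoblasts differentiate. It lies on chromosome 4 at 109660876 to 109667189, minus strand (ENSMUSG00000028551). It stood at 212, 497, 511 and 590 normalised reads in Cre and at 428, 674, 702 and 800 in GFP. Each Cre library was below the GFP library of its number, replicate 1 was lowest in both groups, and the ranges overlapped. Means of 453 ± 165 and 651 ± 158 (n = 4 each, ± SD) gave a log2 difference of -0.59 ± 0.34 (SE; limma, adjusted p = 0.430 without pairing). In the paired model Cdkn2c fell (SE 0.10; limma, adjusted p = 0.000868), with an interval of 0.573- to 0.774-fold, and it was the only one of the 7 inhibitors to do so. Pair 1 differed by -1.01 and the others by -0.46 to -0.44, and without replicate 1 the paired change was -0.44 (limma, adjusted p = 0.000473).

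Cdkn2d, which encodes p19, the remaining INK4 protein, spans 21288410 to 21291308 on chromosome 9, minus strand (ENSMUSG00000096472). It stood at 410, 580, 482 and 563 normalised reads in Cre and at 384, 489, 485 and 499 in GFP, with replicate 1 lowest in both and overlapping ranges. Its log2 change of 0.13 ± 0.14 (SE) passed neither model (limma, adjusted p = 0.722, paired 0.170), with a paired interval of 0.980- to 1.22-fold (0.868- to 1.37-fold without pairing). Per length, Cdkn2a made up 63.6% ± 1.25 of the INK4 reads in Cre and 67.6% ± 1.70 in GFP, and Cdkn2b 28.3% ± 3.07 and 22.7% ± 4.72 (n = 4 each, ± SD). Cdkn2c held 2.87% ± 1.5 and 4.43% ± 2.11, and Cdkn2d 5.24% in both groups.

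**Figure D3:**
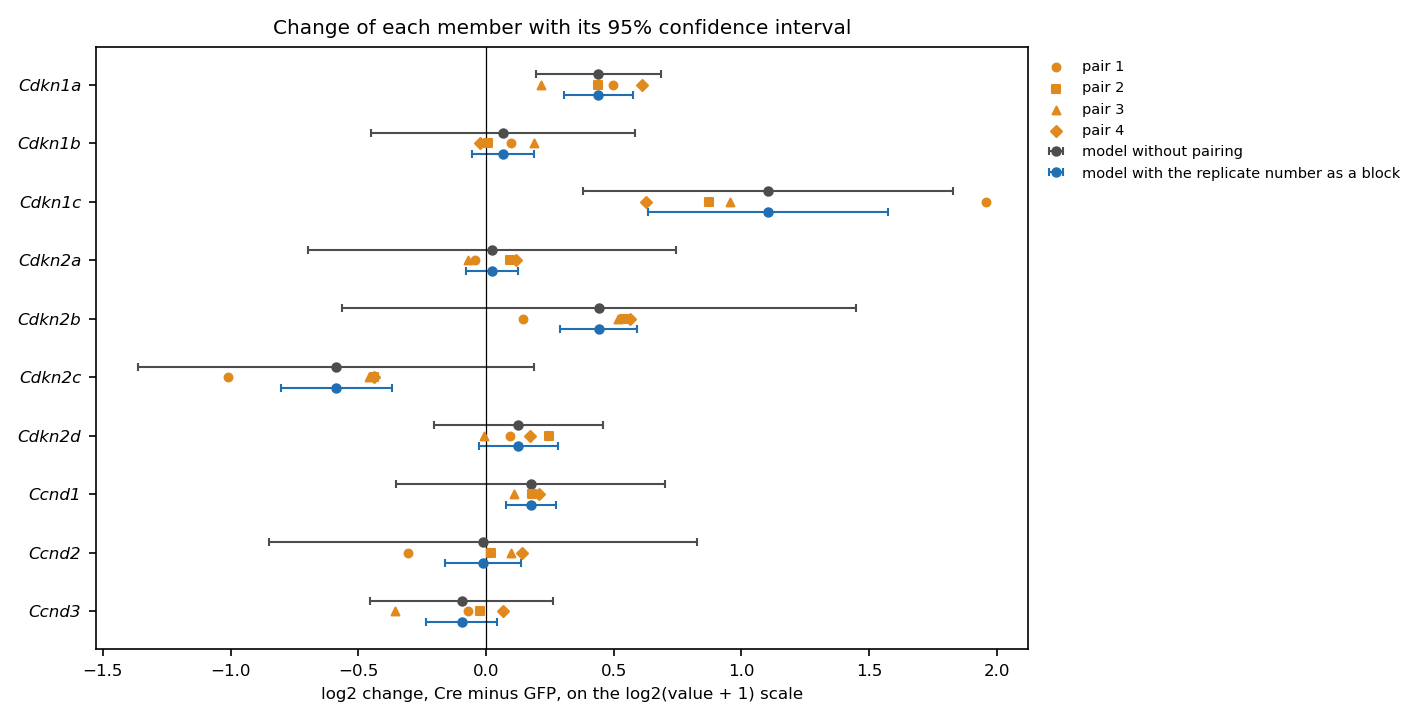
The log2 change of each gene, Cre minus GFP, with 95% intervals from the model without pairing (grey) and the paired model (blue), and the difference in each pair (orange symbols). The paired intervals of Cdkn1a, Cdkn1c, Cdkn2b and Ccnd1 lie above 0 and that of Cdkn2c below it. Without pairing only the unadjusted intervals of Cdkn1a and Cdkn1c exclude 0.

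Ccnd1 encodes cyclin D1, the D cyclin that growth factors induce in dividing myoblasts. It lies on chromosome 7 at 144929931 to 144939869, minus strand (ENSMUSG00000070348). It stood at 41505, 26179, 30088 and 45691 normalised reads in Cre and at 36043, 23102, 27862 and 39583 in GFP. Replicates 1 and 4 were high and 2 and 3 low in both groups, the ranges overlapped, and each Cre library lay above its GFP partner by 0.11 to 0.21 on the log2 scale. Means were 35866 ± 9230 and 31648 ± 7520 (n = 4 each, ± SD), and the log2 change was 0.18 ± 0.23 (SE; limma, adjusted p = 0.764 without pairing). Ccnd1 rose in the paired model (SE 0.04; limma, adjusted p = 0.00906). Without replicate 2 the paired change was 0.17 with a larger SE of 0.06, and it did not pass (limma, adjusted p = 0.0565). Oraov1 on the opposite strand overlaps the gene (mean 645 normalised reads), and 21.6% of the 50-base stretches of Ccnd1 also occur in another annotated gene. Both strands were searched for shared stretches, so this share can include the overlap with Oraov1 and need not be a separate limit.

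Ccnd2 encodes cyclin D2 and spans 127125162 to 127151060 on chromosome 6, minus strand (ENSMUSG00000000184). It stood at 14141, 10136, 8289 and 20684 normalised reads in Cre and at 17498, 9998, 7747 and 18746 in GFP. As for Ccnd1, replicates 1 and 4 were high in both groups, and the pairs differed by -0.31 to 0.14 without a common direction. The log2 change was -0.01 ± 0.36 (SE, limma, adjusted p = 0.992, paired 0.903), with a paired interval of 0.895- to 1.10-fold (0.555- to 1.77-fold without pairing). Its sign turned to 0.01 with upper-quartile rescaling and to 0.09 without replicate 1 in the paired model, so no direction is given.

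Ccnd3 encodes cyclin D3, the D cyclin that is known to stay high in differentiating muscle cells. It spans 47505051 to 47599691 on chromosome 17, plus strand (ENSMUSG00000034165). It stood at 10975, 12575, 9132 and 15158 normalised reads in Cre and at 11539, 12774, 11676 and 14469 in GFP, with replicate 4 highest in both and overlapping ranges. The log2 change of -0.10 ± 0.16 (SE) passed neither model (limma, adjusted p = 0.821, paired 0.241), with a paired interval of 0.851- to 1.03-fold. Bysl, on the opposite strand, overlaps the end of Ccnd3 (mean 1700 normalised reads), and without known strand use their shared reads cannot be assigned.

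Per length, cyclin D1 made up most of the D cyclin message, at 73.3% ± 3.88 in Cre and 70.0% ± 2.99 in GFP (n = 4 each, ± SD). Its share was higher in Cre in each pair. The shares rest on merged lengths of 4.709 kb over 3 transcripts for Ccnd1, 9.409 kb over 8 for Ccnd2 and 8.775 kb over 21 for Ccnd3. A shorter length for Ccnd2 or Ccnd3 would raise the share of that gene. Ccnd2 held 13.3% ± 2.27 and 14.6% ± 3.15, and Ccnd3 13.4% ± 3.0 and 15.5% ± 3.29. These shares were not tested.

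Genes within 100 kb of each member were read for comparison with the member itself. Around Cdkn1b, which did not pass, all 4 tested neighbours fell in the paired model and were lower in 4 of 4 pairs, where 21.7% of all genes fell. Lockd, a long noncoding RNA transcribed 3.58 kb from Cdkn1b, went from 163 ± 54.8 to 96.5 ± 36.6 normalised reads (log2 change -0.79; limma, adjusted p = 0.328, paired 0.000678). Gpr19, an orphan receptor gene, changed by -0.78 (limma, paired adjusted p = 0.00828), Crebl2 by -0.35 (0.0331) and the helicase gene Ddx47 by -0.16 (0.0161). Whether their changes differ from that of Cdkn1b was not tested.

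Beside Cdkn1a lies Trp53cor1, known as lincRNA-p21 and as a p53 target, 12.0 kb away. It stood at 331 ± 57.2 in Cre and 259 ± 34.1 in GFP (n = 4 each, ± SD; log2 change 0.34; limma, adjusted p = 0.329, paired 0.0347, higher in 4 of 4 pairs). Srsf3, a splicing factor gene 47.6 kb away, fell in the paired model by 0.25 on the log2 scale (limma, adjusted p = 0.00166), and Rab44 and Stk38 passed neither model. On the far side of Cdkn2a, Mtap changed by -0.13 (limma, paired adjusted p = 0.0332, lower in 4 of 4 pairs). Near Cdkn2d, Pde4a rose by 0.39 on the log2 scale in the paired model (limma, adjusted p = 0.000461), and Kri1, Keap1, Slc44a2 and Atg4d passed neither model. None of the tested neighbours of Cdkn1c (2 genes), Cdkn2c (1), Ccnd1 (1), Ccnd2 (2) and Ccnd3 (7) was called in either model.

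**Figure D4:**
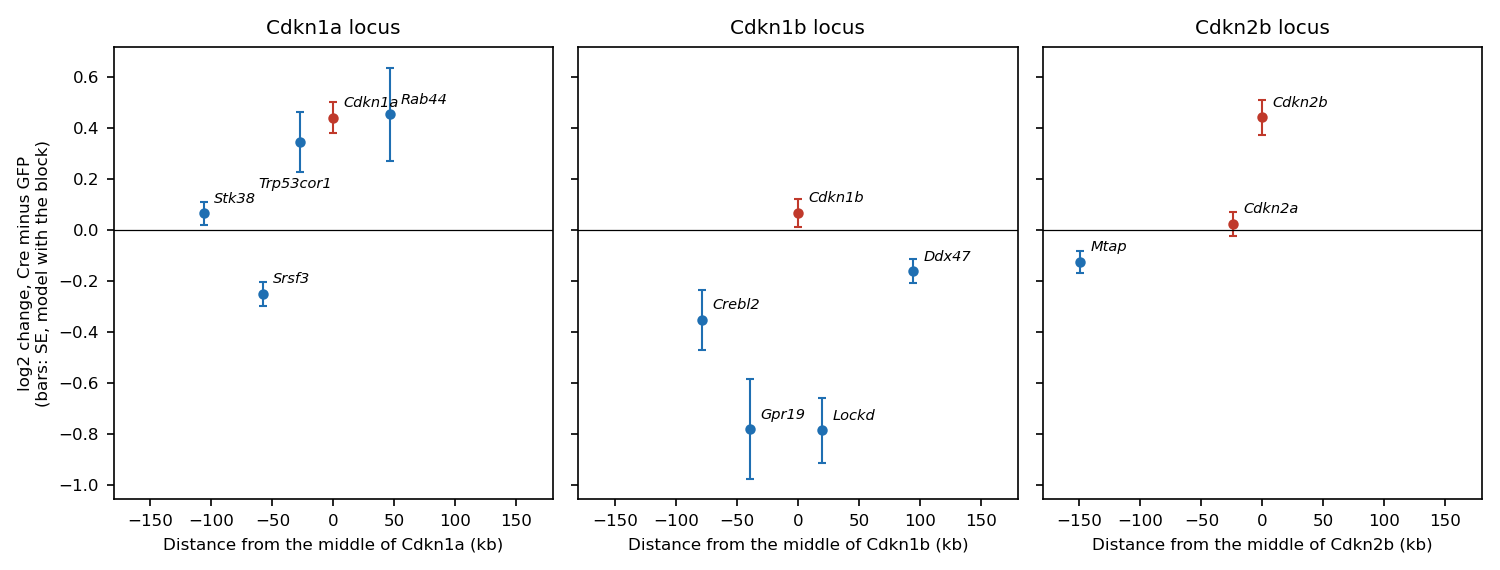
The log2 change, Cre minus GFP, of Cdkn1a, Cdkn1b, Cdkn2b and Cdkn2a (red) and the tested genes within 100 kb (blue) against the distance between gene midpoints in kb, with the SE of the paired model. All 4 neighbours of Cdkn1b lie below 0 while Cdkn1b lies at 0.07, and Cdkn2b lies above its neighbour Cdkn2a.

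Of 12 genes for the G1 and S phase kinases, their cyclins and activators, 0 passed without pairing (limma; 1 higher and 4 lower with an unadjusted p below 0.05), and in the paired model 7 fell and 2 rose, where 43.9% of all genes were called. Cdk4, the partner of the D cyclins, went from 12172 ± 1137 to 9569 ± 1208 normalised reads (log2 change -0.35; limma, adjusted p = 0.177, paired 0.000157). The other D cyclin partner, Cdk6, rose in the paired model, from 2342 ± 232 to 2586 ± 250 (log2 change 0.14; limma, paired adjusted p = 0.0280). Cyclin E1 (Ccne1), which drives entry into S phase, changed by -0.52 and the S phase cyclin Ccna2 by -0.96 (limma, paired adjusted p = 2.8e-05 and 3.2e-05). The list's median log2 change was -0.27.

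Of 13 retinoblastoma and E2F family genes, 0 passed without pairing (limma; 0 higher and 3 lower with an unadjusted p below 0.05), and 6 fell and 1 rose in the paired model, near the 43.9% called over all genes, with a median of -0.10. E2f1, an activator of replication genes, went from 1461 ± 106 to 1147 ± 120 (log2 change -0.35; limma, adjusted p = 0.138, paired 0.00176). Rbl1, which encodes the retinoblastoma relative p107, changed by -0.82 and the repressor E2f7 by -1.05 (limma, paired adjusted p = 5.68e-05 and 0.000108). Rb1 itself was the single riser, from 3197 ± 564 to 4047 ± 706 (log2 change 0.34; limma, adjusted p = 0.350, paired 0.000116, higher in 4 of 4 pairs), a gene picked out after its values were seen.

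Among 14 genes for the turnover of the inhibitors and D cyclins, 3 rose, 3 fell and 8 were not called in the paired model, which is near the background, with a median of -0.04 (limma; 0 called without pairing, 1 higher and 1 lower with an unadjusted p below 0.05). Dtl, the ubiquitin ligase adaptor that directs p21 to degradation in S phase, went from 2079 ± 466 to 1169 ± 373 (log2 change -0.87; limma, adjusted p = 0.188, paired 3.04e-05). Cks1b, the cofactor of the ligase that degrades p27, changed by -0.31 (limma, paired adjusted p = 0.00217). Fbxw7, which directs cyclin E to degradation, changed by 0.24 (limma, paired adjusted p = 0.0129), while without replicate 3 the change was 0.18 and did not pass (0.0621).

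Of 23 genes for transcription regulators of the members, 8 rose, 6 fell and 9 were not called in the paired model, where 43.9% of all genes were called (limma; 0 called without pairing, 2 higher and 2 lower with an unadjusted p below 0.05), with a median of 0.12. Ezh2, the methyltransferase of Polycomb repressive complex 2, which is known to repress Cdkn2a and Cdkn2b, went from 3890 ± 774 to 2341 ± 541 (log2 change -0.74; limma, adjusted p = 0.131, paired 9.52e-06). Trp53, the gene for p53, changed by -0.26, although p53 is regulated mainly as a protein (limma, adjusted p = 0.242, paired 0.00162). Foxo3, an activator of Cdkn1b, changed by 0.18 (limma, paired adjusted p = 0.0113), while without replicate 4 the change was 0.14 and did not pass (0.0634).

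All 12 proliferation genes fell in the paired model (limma; 0 without pairing, 8 lower with an unadjusted p below 0.05), with a median log2 change of -0.83, where 21.7% of all genes fell. Pcna, the replication clamp, was at 1266, 1729, 1900 and 2188 normalised reads in Cre and at 2338, 2630, 2873 and 3426 in GFP, so the Cre library of every pair was lower and the ranges did not overlap. Its log2 change was -0.68 ± 0.18 (SE; limma, adjusted p = 0.123, paired 1.32e-05). Tyms, which makes thymidylate, changed by -0.96 and the helicase subunit Mcm2 by -0.63 (limma, paired adjusted p = 1.02e-05 and 9e-06). In the other direction, all 12 tested of 13 myogenic differentiation genes rose in the paired model, where 22.2% of all genes rose, with a median of 0.39 (limma; 0 called without pairing and 0 with an unadjusted p below 0.05). Slow troponin Tnnt1 changed by 0.70, the differentiation factor Myog by 0.46 and the fusion protein gene Mymk by 0.41 (limma, paired adjusted p = 7.53e-05, 0.000726 and 0.00224). The members' changes stood beside these lists without a test of any link between them.

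**Figure D5:**
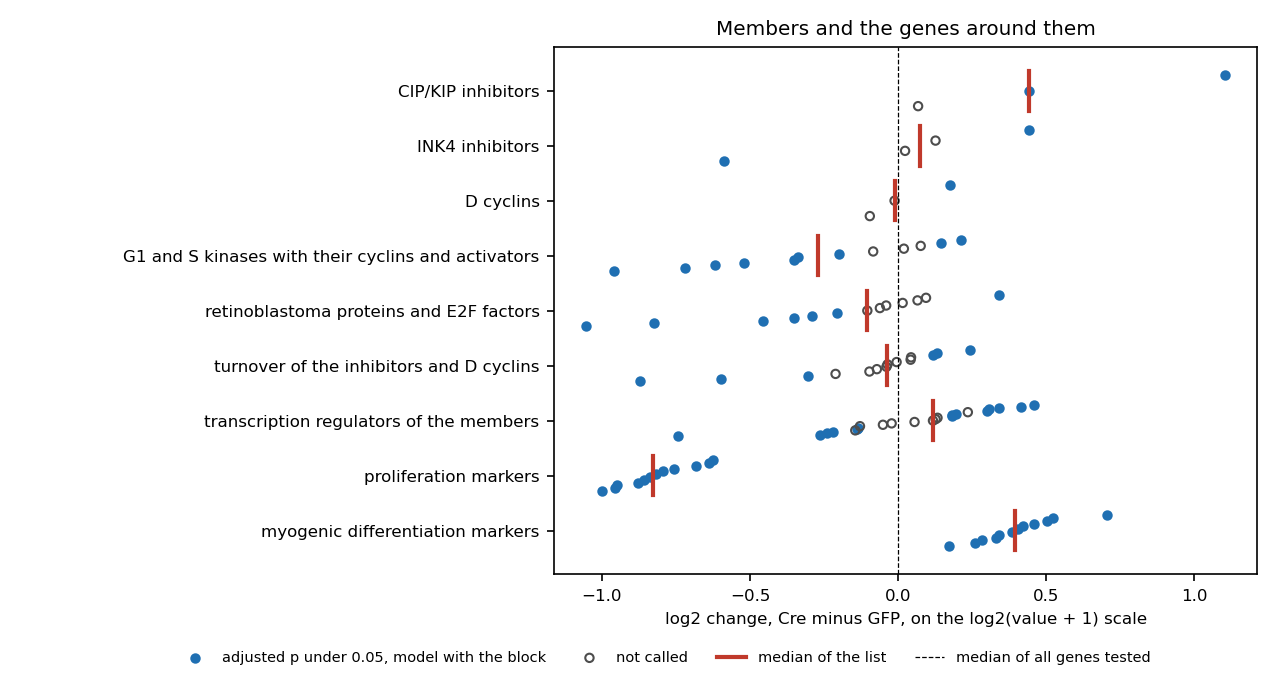
The log2 change, Cre minus GFP, of each tested gene in the 3 families and 6 lists (1 point a gene), filled where the paired model called it and open where it did not. Red bars are list medians and the dashed line is the median of all genes tested. The 12 proliferation genes all lie at or below -0.63 and the 12 differentiation genes at or above 0.17.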

How the data were processed

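Libraries were made from total RNA of 8 cultures by a stranded method, according to the labels. The submitters' processing notes name STAR 2.5.3a, featureCounts 1.5.3, Subread, DESeq, mm10 and GRCm38. The order and settings of these tools, the annotation release and the use of strand were not given in the sources used here. The values as deposited were given the unit score: they are whole numbers, yet low values are missing or doubled at regular steps, as when read counts are scaled and rounded, so no count model was run. The authors' normalisation was kept.

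Genes with at least 1 CPM in at least 4 libraries were tested (12910, with 8066 removed) on log2(value + 1) with the intensity trend of limma 3.58.1 (R 4.3.3), two-sided, with Benjamini-Hochberg adjustment over all genes tested and a threshold of 0.05. Fold changes on that scale understate those of low genes. The labels do not say that equal numbers share a mouse, so the first model was unpaired and its p-values treat the libraries as independent. Same-numbered libraries had correlated deviations from their group means (r from 0.820 to 0.908, against -0.597 to 0.477 for other pairings), and the numbers were taken to pair the libraries on that evidence alone. The share of variation is the share of the sum of squares of the log2 values.

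The members and gene lists were chosen with earlier results of these data known. Named genes are all 10 members, Chd4, cell type markers and up to 3 genes of each list with the smallest unadjusted p. Cdk6, Rb1 and the neighbours within 100 kb were added after values were seen. The ratio of Cdkn2b to Cdkn2a was not among the planned comparisons. 1 neighbour of Cdkn2d is not reported here. Exon lengths, overlaps and shared 50-base stretches came from GENCODE M21, and promoter windows from RefSeq on GRCm38.p6. Alternatives were voom, other filters and pseudocounts (0.1 and 5), rescaling to equal totals or upper quartiles, and leaving out each library or pair. The models were also run on simulated data. There same-numbered libraries shared a mean by construction, so that run cannot tell whether the numbers pair the real libraries. Tables and figures used Python 3.11.15, numpy 2.4.6, pandas 2.3.3 and matplotlib 3.10.9.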

Additional observations from a re-analysis of the deposited data

Results flagged for a closer look

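In 3 of 20 groups of 4 libraries, 1 library stood apart from the rest by Dixon's gap measure, the gap to the nearest library over the whole range, compared with Dixon's 95% critical value. Chance alone would do so in about 1 in 20 groups. The 20 groups are not independent, since libraries of equal number deviated together, so whether 3 exceeds that rate was not tested. Cdkn2b was at 4838 normalised reads in Cre library 1, where the next was 2251 (0.896 of the range). In GFP library 1 it was at 4382, where the next was 1546 (0.926). Cdkn2d was at 384 in GFP library 1, where the next was 485 (0.878). All 3 values are from replicate 1, and the paired log2 change without it was 0.54 for Cdkn2b and 0.14 for Cdkn2d.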

How the results depend on the processing

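With the replicate block the count of members called went from 0 higher and 0 lower to 4 and 1, and that of genes in the 6 lists from 0 and 0 to 24 and 34. Over the 11 alternatives of the paired model 3 to 4 members were higher and 1 lower. The calls of Cdkn2b and Cdkn2c held in all 11, and that of Ccnd1 was lost without replicate 2, where the log2 change was 0.17 against 0.18 with all pairs. With a filter of 5 CPM Cdkn1c was not tested. Signs turned only for members near 0. Leaving out 1 library, the log2 change ranged from -0.11 to 0.24 for Cdkn1b, -0.21 to 0.28 for Cdkn2a, -0.25 to 0.19 for Ccnd2 and -0.22 to 0.026 for Ccnd3. The unpaired values of members that the paired model called moved too: Cdkn2b from 0.14 (without Cre 1) to 0.85 (without GFP 1), Cdkn2c from -0.78 (without GFP 1) to -0.26 (without Cre 1), and Ccnd1 from 0.03 (without GFP 2) to 0.31 (without Cre 2), while Cdkn1a stayed at 0.37 to 0.50 and Cdkn1c at 0.85 to 1.30. Counting error was estimated for Cdkn1c, at up to 21.1% in a library, and not for the other members. Leaving out 1 pair in the paired model, it ranged from -0.0077 to 0.06 for Cdkn2a (-0.00012 without replicate 2) and -0.06 to 0.086 for Ccnd2. Upper-quartile rescaling gave 0.012 for Ccnd2 in both models. Over all genes the unpaired model called 108 higher and 32 lower, 58 and 27 with a filter of 5 CPM, and 0 to 51 higher and 1 to 7 lower without 1 library. Rescaling moved the median of all genes to between -0.02 and 0.02.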
